A study of Mus musculus with 12 samples.

Results

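Immune checkpoint receptors and ligands are surface proteins through which T cells are restrained or stimulated, and 10 of their genes were followed in B16-F10 tumors of obese and nonobese mice. They were taken from the 23420 genes of the count table, by name, with earlier results of these data known: the receptor genes Pdcd1, Ctla4, Lag3, Havcr2, Tigit and Icos, and the ligand genes Cd274, Pdcd1lg2, Lgals9 and Cd276. Of these 10 genes, 6 passed the filter on low counts and were tested. Ctla4, Icos, Pdcd1lg2 and Tigit had only 17 to 73 counts in all 12 tumors together and are given as raw counts.

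The B16-F10 line comes from a melanoma of the C57BL/6 strain. It was grown subcutaneously in male C57BL/6J mice that became obese on a Western diet with added cholesterol, which took 15 weeks in males, or stayed nonobese on a matching control diet. The mice were 4 to 5 weeks old when the diets began. Once tumors were palpable, mice of each diet received intraperitoneal injections, at 10 mg/kg and 3 times a week, of anti–PD-1 (clone 29F.1A12) or of an isotype control antibody (clone 2A3). This gave 4 groups of 3 tumors each, which are called nonobese isotype and nonobese anti–PD-1 on the control diet and obese isotype and obese anti–PD-1 on the Western diet. All groups shared the sex, the strain, the implanted line and the injection of an antibody, so no tumor was free of injected immunoglobulin. RNA of whole tumors was sequenced and counted per gene, and the totals ran from 14022929 to 33871843 counts per tumor.

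PD-1, the product of Pdcd1, is an inhibitory receptor that T cells display after activation. Its ligands PD-L1 (Cd274) and PD-L2 (Pdcd1lg2) are displayed by antigen-presenting cells, and PD-L1 also by many tumor cells exposed to interferon gamma. Blocking PD-1 with an antibody keeps these ligands from engaging it, which is the basis of checkpoint therapy in melanoma. RNA counts do not measure the proteins or how much of the receptor the antibody occupied.

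The ligand genes Lgals9, Cd276 and Cd274 were the most abundant members, and the ligand gene Pdcd1lg2 and the receptor genes Ctla4 and Icos the least. Levels were compared between genes as CPM (counts scaled to the library size and the TMM factor) per kb of annotated exon. The mean over 12 tumors was 64.8 CPM per kb for Lgals9, 12.95 for Cd276 and 3.05 for Cd274. It was 0.673 for Havcr2, 0.503 for Lag3, 0.316 for Tigit and 0.294 for Pdcd1. The lowest were Pdcd1lg2 with 0.0454, Ctla4 with 0.0309 and Icos with 0.0209 CPM per kb. Lgals9, Cd276 and Cd274 kept this order in 12 of 12 tumors, and Cd274 exceeded Havcr2 in 12 of 12. Havcr2 exceeded Lag3 in 10 of 12 tumors and Lag3 exceeded Tigit in 11 of 12, although their ranges overlapped. Tigit was above Pdcd1 in 6 of 12 tumors, so these neighbours were not separated, and neither were Pdcd1lg2, Ctla4 and Icos.

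**Figure D1:**
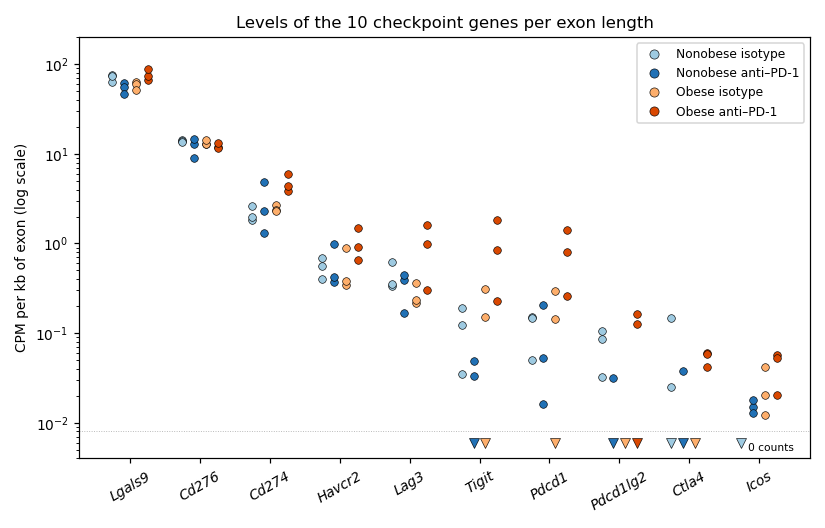
Level of each of the 10 checkpoint genes in every tumor, as CPM per kb of exon on a log axis, with the 4 groups side by side and in colour. Downward triangles under the dotted line mark groups with at least 1 tumor at 0 counts. Lgals9 lies between 46.8 and 87.8 CPM per kb and Cd276 between 9.02 and 14.6, while Icos does not exceed 0.0574.

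Of the 6 receptor genes, 5 had their highest group mean in obese anti–PD-1 tumors, a tally that was not made over all genes. Ctla4 had its highest mean in nonobese isotype tumors (0.133 against 0.125 CPM). That Ctla4 mean rests on 6 counts in replicate 3 of nonobese isotype. With the counts pooled over each group, the order turned (0.0967 against 0.124 CPM). Replicate 2 of obese anti–PD-1 was the highest of the 12 tumors for Pdcd1, Lag3, Havcr2 and Tigit, and for Icos it stood close to replicate 3 (0.197 and 0.182 CPM). In RNA of whole tumors, fewer cells of a type and less RNA per cell cannot be told apart. Pdcd1 (chr1:94038305-94052553 on GRCm38, minus strand) had 3, 10 and 5 counts in nonobese isotype tumors, listed here and below as replicates 1, 2 and 3. It had 2, 1 and 9 counts in nonobese anti–PD-1, 0, 4 and 12 in obese isotype, and 22, 55 and 11 in obese anti–PD-1 tumors. The corresponding means were 0.225 ± 0.111 CPM (SD, n = 3), 0.178 ± 0.197, 0.284 ± 0.286 and 1.59 ± 1.10 CPM. Replicates 1 and 2 of obese anti–PD-1 exceeded every other tumor, whereas replicate 3 of that group lay below the highest obese isotype tumor. Pdcd1 reached the level the filter asks for in all 3 obese anti–PD-1 tumors and in 1 obese isotype tumor, so that its high values also decided that it was tested. The 250 bases upstream of its RefSeq start are shown because Pdcd1 is the target of the antibody, and the capitals mark the match to an interferon regulatory factor core described with Cd274.
Pdcd1, chr1:94052554-94052803, minus strand: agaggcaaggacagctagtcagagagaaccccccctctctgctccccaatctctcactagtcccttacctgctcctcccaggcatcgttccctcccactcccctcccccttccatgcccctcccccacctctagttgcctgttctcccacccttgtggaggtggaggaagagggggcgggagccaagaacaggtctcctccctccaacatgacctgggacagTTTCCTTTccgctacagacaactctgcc

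Lag3 (chr6:124904361-124911705, minus strand) encodes an inhibitory receptor that binds MHC class II. It was counted 22, 45 and 13 times in nonobese isotype tumors and 7, 27 and 21 times in nonobese anti–PD-1 tumors. It was counted 11, 7 and 16 times in obese isotype and 9, 69 and 46 times in obese anti–PD-1 tumors. In CPM, the obese anti–PD-1 tumors stood at 0.635, 3.39 and 2.10, and the other 9 tumors lay between 0.356 and 1.32. Replicates 2 and 3 of obese anti–PD-1 were thus above every other tumor, and replicate 1 lay within the range of the other groups.

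Havcr2 (chr11:46454935-46481255, plus strand) encodes TIM-3, a receptor found on T cells and on macrophages and dendritic cells. Its counts were 47, 63 and 19 in nonobese isotype, 20, 37 and 61 in nonobese anti–PD-1, 22, 15 and 51 in obese isotype, and 25, 82 and 54 in obese anti–PD-1 tumors. The group means were 1.48 ± 0.387, 1.63 ± 0.949, 1.47 ± 0.838 and 2.75 ± 1.16 CPM (SD, n = 3). All groups overlapped, and replicate 3 stood at 2.43 to 2.72 CPM in every group but nonobese isotype.

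Tigit (chr16:43648867-43664146, minus strand) encodes an inhibitory receptor for the nectin family protein PVR. It had 1, 6 and 2 counts in nonobese isotype, 0, 1 and 1 in nonobese anti–PD-1, and 0, 2 and 6 in obese isotype tumors. Obese anti–PD-1 tumors had 3, 34 and 17 counts, so replicates 2 and 3 held most of the 73 counts in the series. Ctla4 (chr1:60887000-60915832, plus strand) encodes an inhibitory receptor that competes with CD28 for CD80 and CD86, and it never exceeded 6 counts. It had 0, 2 and 6 counts in nonobese isotype, 0, 0 and 2 in nonobese anti–PD-1, 0 in each obese isotype tumor, and 2, 2 and 3 in obese anti–PD-1. Icos (chr1:60977927-61000320, plus strand), which encodes a stimulatory receptor of activated T cells, had 0 counts in each nonobese isotype tumor and 1 to 4 counts in the other 9 tumors. Ctla4 and Icos lie at or near the detection floor of 3 counts in each tumor, so that single tumors could not be told apart by them.

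**Figure D2:**
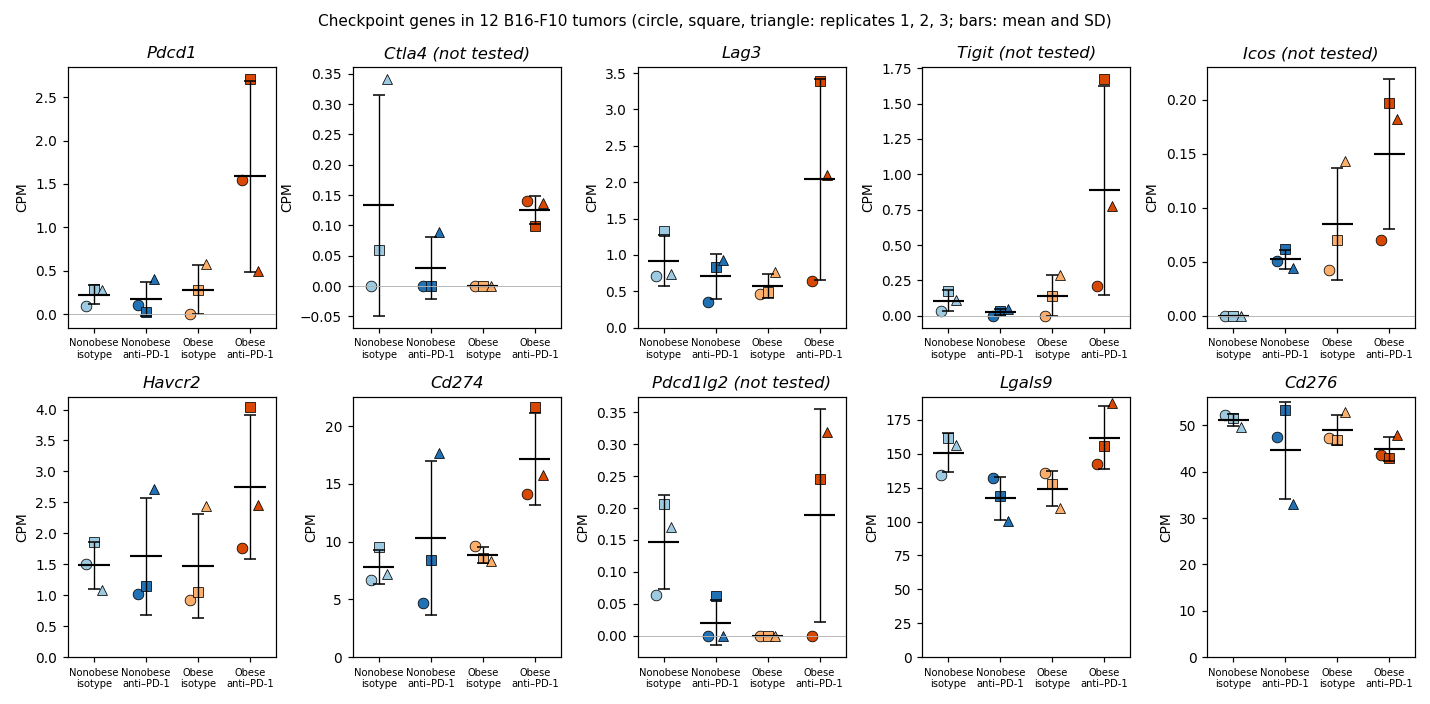
CPM of each checkpoint gene in the 12 tumors, 3 per group, with replicate numbers as symbols and the mean and SD as bars; each panel has its own scale. For Pdcd1, Lag3, Tigit, Havcr2 and Cd274, replicate 2 of obese anti–PD-1 is the highest of the 12 tumors, for example 2.71 CPM for Pdcd1 and 3.39 CPM for Lag3.

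Among the ligands, Cd274 and Lgals9 were higher in obese anti–PD-1 than in obese isotype tumors without overlap. Cd274 (chr19:29367455-29388095, plus strand) stood at 6.68, 9.52 and 7.21 CPM in nonobese isotype and at 4.73, 8.44 and 17.7 CPM in nonobese anti–PD-1 tumors. It stood at 9.63, 8.60 and 8.36 CPM in obese isotype and at 14.1, 21.6 and 15.8 CPM in obese anti–PD-1 tumors. Replicate 3 of nonobese anti–PD-1 was the only tumor outside the obese anti–PD-1 group that exceeded 10 CPM. Of its annotated exon, 14.1% is shared with an antisense gene (AC119228.1). The strand setting of the counting was not stated, so reads of these genes may not be told apart.

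The sequence upstream of Cd274 is shown because PD-L1 is known to be induced through interferon regulatory factors. RefSeq (GRCm38.p6) gave an upstream sequence for 8 of the 10 members, all but Lag3 and Icos. In the 250 bases before the start, both strands were searched for GAAANNGAAA, the core of the interferon-stimulated response element, for AANNGAAA, the shorter core of interferon regulatory factor sites, and for TTCNNNGAA, the gamma-activated site. Any match of the first motif contains a match of the second. Of 32851 RefSeq promoters of the same length, 2.98% held the first motif, 21.3% the second and 7.02% the third. The Cd274 sequence held AAACGAAA on the opposite strand, its 5′ end 168 bases before the start, printed here as its complement in capitals.
Cd274, chr19:29367188-29367437, plus strand: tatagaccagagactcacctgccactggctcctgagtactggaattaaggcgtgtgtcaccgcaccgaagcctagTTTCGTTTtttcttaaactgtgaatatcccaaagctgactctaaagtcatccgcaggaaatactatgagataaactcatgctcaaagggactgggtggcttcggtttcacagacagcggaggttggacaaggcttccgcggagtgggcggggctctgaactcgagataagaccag
Pdcd1 held AAAGGAAA with its 5′ end 21 bases before the start, and Pdcd1lg2 held AAAAGAAA 28 bases before it, both on the opposite strand. No match to these letters was found in the windows of Ctla4, Havcr2, Tigit and Cd276, and the gamma-activated site was matched in none of the 8. A match is a run of letters, and no binding was measured.

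Lgals9 (chr11:78962974-78984946, minus strand) encodes galectin-9, a sugar-binding protein described as a ligand of TIM-3. It stood at 134, 161 and 156 CPM in nonobese isotype and at 132, 119 and 100.1 CPM in nonobese anti–PD-1 tumors. Obese isotype tumors had 136, 127 and 110.2 CPM and obese anti–PD-1 tumors 142, 156 and 188 CPM. Each anti–PD-1 group was separate from its isotype group, but in opposite directions: below it in nonobese and above it in obese mice. Its upstream sequence is shown because it was the only 1 of the 8 with the longer motif, GAAAAAGAAA on the opposite strand with its 5′ end 46 bases before the start. A second match, AAGGGAAA, lies with its 5′ end 151 bases before the start on the same strand as the gene, and both are in capitals.
Lgals9, chr11:78984925-78985174, minus strand: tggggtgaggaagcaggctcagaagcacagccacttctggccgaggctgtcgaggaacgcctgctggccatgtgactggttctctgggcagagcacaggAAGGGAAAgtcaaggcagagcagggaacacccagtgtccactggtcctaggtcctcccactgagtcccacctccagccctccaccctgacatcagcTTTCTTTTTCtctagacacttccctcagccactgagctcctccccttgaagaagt

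Cd276 (chr9:58524298-58555437, minus strand) encodes B7-H3, a member of the B7 family found on many tumor cells. Its log2 CPM varied within groups by an SD of 0.19, as little as that of Lgals9 (0.18) and less than that of Pdcd1 (1.12). Its group means were 51.1 ± 1.30 CPM in nonobese isotype, 44.6 ± 10.4 in nonobese anti–PD-1, 49.0 ± 3.33 in obese isotype and 44.8 ± 2.60 in obese anti–PD-1 (SD, n = 3). Replicate 3 of nonobese anti–PD-1, at 33.0 CPM, was the lowest tumor, and the other 11 lay between 43.0 and 53.3 CPM. A gene model (biotype TEC) on the opposite strand (Gm10657) shares 11.4% of its exon. Pdcd1lg2 (chr19:29410919-29471161, plus strand), the neighbour of Cd274, had 2, 7 and 3 counts in nonobese isotype, 0, 2 and 0 in nonobese anti–PD-1, 0 in each obese isotype tumor, and 0, 5 and 7 in obese anti–PD-1. Replicates 2 and 3 of obese anti–PD-1 lay above the floor of 3 counts, and replicate 1 had none.

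The comparison of anti–PD-1 with isotype in nonobese mice asked how these genes respond to the antibody on the control diet. None of the 6 tested members reached the thresholds of the study (more than 2-fold, with an unadjusted P below 0.05 in the edgeR quasi-likelihood F-test), which 2.42% of the 13095 genes tested passed. By unadjusted P alone, Lgals9 was the only member past 0.05, as were 5.23% of all genes. No member had an FDR (Benjamini-Hochberg over all genes tested) below 0.05 by edgeR, in which 0% of all genes did, or by DESeq2, in which 0.0687% of all genes with an FDR did. Lgals9 was lower by a log2 fold change of -0.37 (SE 0.14, FDR 0.859), and its groups did not overlap, as for 5.37% of all genes in this direction. Pdcd1 and Lag3 had log2 fold changes of -0.37 (SE 1.08) and -0.38 (SE 0.56), Havcr2 0.12 (SE 0.49), Cd274 0.40 (SE 0.35) and Cd276 -0.20 (SE 0.14). The interval for Pdcd1 ran from -2.69 to 1.95 on the log2 scale, so that its few counts left room for a change in either direction. Without replicate 3 of nonobese anti–PD-1, the difference in Cd274 was -0.26 and that in Havcr2 was -0.48.

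In obese mice, the same comparison found Pdcd1 and Lag3 raised. Pdcd1 rose by a log2 fold change of 2.48 (SE 0.94, FDR 0.535) and Lag3 by 1.84 (SE 0.58, FDR 0.410) by edgeR. Because Pdcd1 passed the filter through the group in which it was high, its call is not counted against the share of all genes. Of the other 5 tested members, which reached the filter level in at least 2 tumors of every group, Lag3 was the 1 called, and 2.24% of all genes tested were called higher. Cd274 was higher by 0.95 (SE 0.35, FDR 0.521), just under the 2-fold threshold, and Lgals9 by 0.38 (SE 0.14, FDR 0.488). Cd274 and Lgals9 were the 2 of 6 members whose groups did not overlap, against 5.45% of all genes in this direction. Havcr2 differed by 0.90 (SE 0.49) and Cd276 by -0.13 (SE 0.15). No member had an FDR below 0.05 here by edgeR, and neither did any of the 13095 genes. At an unadjusted P below 0.05 in edgeR there were Lag3, Cd274 and Lgals9 of these 5 members, and Pdcd1, against 7.57% of all genes. DESeq2 gave 0 members an FDR below 0.05, against 0.802% of all genes.

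The calls in obese mice rested on few tumors. Without replicate 2 of obese anti–PD-1, Pdcd1 stood at 1.82 and Lag3 at 1.27 in edgeR and no member was called. Without replicate 1 of obese isotype, which had 0 Pdcd1 counts, Pdcd1 stood at 1.86 and was not called. Cd274 was called, at 1.03 to 1.10, once replicate 1 of obese isotype or replicate 1 or 3 of obese anti–PD-1 was left out. Havcr2 was called without replicate 3 of obese isotype, at 1.49, or without replicate 1 of obese anti–PD-1, at 1.16.

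The 4 members too low to test were set side by side as counts. Over the 3 tumors of each group, Tigit had 54 counts in obese anti–PD-1 and 8 in obese isotype, and Pdcd1lg2 had 12 against 0. With the floor of 3 counts taken over the group, Pdcd1lg2 was at least 4.18-fold higher in obese anti–PD-1, a bound that allows for counting error only in the group at 0. The bound fell to 2.50 without replicate 1 of obese isotype and to 2.698 without its replicate 3. Ctla4 had 7 against 0 counts. In a fit of all genes with a count, Tigit had a log2 fold change of 2.65 (SE 0.96, FDR 0.546) by edgeR. In that fit, Pdcd1lg2 and Ctla4 also passed the thresholds, as did 2.9% of 17519 genes. A fitted fold against a group at 0 counts depends on the prior count.

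The comparison of obese with nonobese isotype tumors addressed how these genes stood on the Western diet without PD-1 blockade. No tested member was called, against 1.37% of all genes, and none had an unadjusted P below 0.05 by edgeR, against 13.3% of all genes. None had an FDR below 0.05 by edgeR. DESeq2 gave an FDR to Cd274, Cd276 and Lgals9 only, each above 0.05, against 2.12% of all genes with an FDR that were below it. The smallest P was that of Lgals9, lower in obese mice by -0.28 on the log2 scale (SE 0.14, FDR 0.399). Lag3 had a log2 fold change of -0.69 (SE 0.58), Pdcd1 0.33 (SE 1.04), Cd274 0.18 (SE 0.35), Havcr2 -0.02 (SE 0.49) and Cd276 -0.06 (SE 0.14). The sign of Pdcd1 turned without replicate 3 of obese isotype, to -0.91. Among the low members, Pdcd1lg2 had 12 counts in nonobese and 0 in obese isotype tumors, at least 2.85-fold higher in nonobese mice. That bound fell to 1.70 without replicate 1 of obese isotype and to 1.84 without its replicate 3. Ctla4 had 8 against 0 counts, of which 6 came from replicate 3 of nonobese isotype, and the 2 that remain without it lie under the floor. Icos went the other way, with 0 counts in nonobese and 5 in obese isotype tumors, of which 3 came from replicate 3, and no fold is given for either gene.

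Between the anti–PD-1 groups, Pdcd1 and Lag3 were higher in obese mice. Pdcd1 differed by a log2 fold change of 3.18 (SE 0.98, FDR 0.222) and Lag3 by 1.52 (SE 0.56, FDR 0.340) by edgeR. Of the 12 Pdcd1 counts in nonobese anti–PD-1, 9 came from replicate 3, so the size of the Pdcd1 difference depends on that tumor. With Pdcd1 left out of the count as before, Lag3 was 1 of 5 members, against 3.69% of all genes called higher. Lgals9 was higher by 0.47 (SE 0.14, FDR 0.184), and no member had an FDR below 0.05 in edgeR, against 0.382% of all genes. These were 50 genes, and 95 with the replicate number as a block, again with no member among them. At an unadjusted P below 0.05 there were Lag3 and Lgals9 of the 5 members, and Pdcd1, against 10.3% of all genes. DESeq2 gave Lgals9 an FDR of 0.0463, and 2.06% of all genes were below 0.05 by DESeq2. Lgals9 was the 1 of the 5 members that did not overlap between these groups, as was so for 6.54% of all genes in this direction, and Pdcd1 did not overlap either. Cd274 differed by 0.74 and Havcr2 by 0.77, and Cd276 by 0.01. Tigit had 54 counts in obese and 2 in nonobese anti–PD-1 tumors, with a log2 fold change of 4.81 (SE 1.14, FDR 0.0659) in the edgeR fit of all genes with a count. Lag3 was not called without replicate 2 of obese anti–PD-1, at 0.96, or without replicate 1 of nonobese anti–PD-1, at 1.25. Leaving out replicate 3 of nonobese anti–PD-1 raised Cd274 to 1.39 (FDR 0.0337) and Havcr2 to 1.37 in edgeR, and both were then called.

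Whether the response to anti–PD-1 differed between diets was tested as the difference of the 2 responses. It was larger in obese mice for Lag3, by 2.21 on the log2 scale (SE 0.80, FDR 0.274, edgeR), and this was the single member called, against 4.93% of all genes called in that direction. Lgals9 had the smallest P of the members, with a difference of 0.75 (SE 0.19, FDR 0.137) that lies under the 2-fold threshold, and DESeq2 gave it an FDR of 0.0141, where 2.16% of all genes were below 0.05. No member passed an FDR of 0.05 in edgeR, and Lag3 and Lgals9 were the 2 with an unadjusted P below 0.05, as were 12.9% of all genes. The Lgals9 difference was composed of a lower level in nonobese and a higher level in obese mice. The difference for Pdcd1 was 2.85 with an interval of -0.25 to 5.95, for Cd274 0.56 with -0.51 to 1.63, and for Havcr2 0.78 with -0.70 to 2.27. That for Cd276 was 0.07 with an interval of -0.37 to 0.51. Lag3 was not called without replicate 2 of nonobese isotype, at 1.85, or without replicate 2 of obese anti–PD-1, at 1.65. Pdcd1 was called in edgeR when replicate 1 of nonobese isotype, replicate 3 of nonobese anti–PD-1, obese isotype or obese anti–PD-1 was left out, at 3.24 to 4.32, and Cd274 without replicate 3 of nonobese anti–PD-1, at 1.22.

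**Figure D3:**
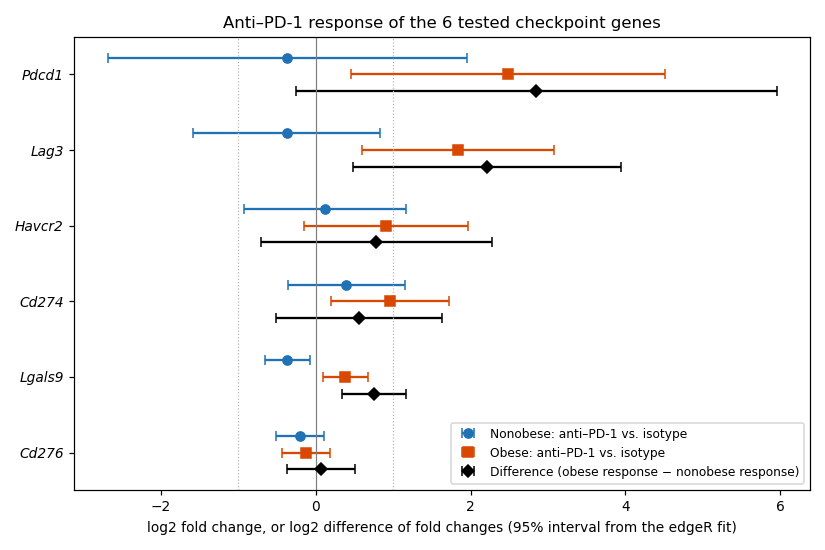
Log2 fold change with anti–PD-1 in nonobese mice (circles) and obese mice (squares), and the difference of these responses (diamonds), for the 6 tested checkpoint genes with 95% intervals from the edgeR fit; dotted lines mark 2-fold. Intervals are widest for Pdcd1, from -0.25 to 5.95 for the difference, and narrow for Lgals9 and Cd276.

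T cell transcripts were read beside the receptor genes. The summed level of 12 T cell markers ran from 5.94 to 9.35 CPM in nonobese isotype, 5.59 to 7.08 in nonobese anti–PD-1, 5.81 to 8.16 in obese isotype and 9.17 to 24.6 CPM in obese anti–PD-1 tumors, and each marker had counts in every group. Of the 8 that were tested, Cd3d, Cd3e, Cd3g, Cd6, Cd8a and Cd8b1 were called higher in the obese response, but each reached the filter level in at most 1 tumor outside obese anti–PD-1, so these 6 calls are not set against the share of all genes. In nonobese mice 2 were called lower (Cd4 and Cd6), against 2.31% of all genes. Macrophage and monocyte markers summed to 177 to 376, 112 to 167, 133 to 236 and 198 to 374 CPM in the same groups, and 6 of 9 were called lower in nonobese mice, 1 (Csf1r) higher in obese mice and 9 larger in obese mice in the difference of the responses. The shares of all genes in these directions were 2.31%, 2.24% and 4.93%. Adipocyte markers also moved, at 2.09 to 6.70 CPM in nonobese isotype, 0.407 to 1.69 in nonobese anti–PD-1, 0.883 to 2.31 CPM in obese isotype and 5.16 to 19.6 CPM in obese anti–PD-1 tumors, with 4 of 4 called higher in the obese response and 2 lower in the nonobese response (2.31% of all genes). Plin1 reached the filter level in fewer than 3 tumors outside obese anti–PD-1, and without it 3 of 3 were called higher, against 2.24% of all genes. Melanoma markers summed to 24720.2 to 30283 CPM, as the labelled tumor line would give, and had no call in any comparison. The part of any of these cell types in the changes of Pdcd1, Lag3, Cd274 or Lgals9 was not tested.

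Receptor counts were then set against the counts of the 4 CD3 genes (Cd3d, Cd3e, Cd3g and Cd247), which encode the signalling chains of the T cell receptor. CD3 counts were 12, 24 and 13 in nonobese isotype, 5, 21 and 16 in nonobese anti–PD-1, 9, 4 and 17 in obese isotype, and 36, 124 and 122 in obese anti–PD-1 tumors. The 6 receptor genes together had 244, 193, 151 and 443 counts in the 4 groups, in the same order. This gave 4.98, 4.60, 5.03 and 1.57 receptor counts for each CD3 count. The ratio was 1.11 to 1.98 in obese anti–PD-1 tumors and 3.24 to 7.25 in the other 9 tumors, without overlap. From obese isotype to obese anti–PD-1 tumors, the mean summed CPM of the receptor genes was 2.95-fold higher and that of the CD3 genes 9.66-fold higher. The sum of all 12 T cell markers was 2.65-fold higher, but its members differed unequally. In the obese response, Lck had a log2 fold change of 0.23 and Cd4 of 0.79, while the 6 called T cell markers had 2.73 to 4.93, so that the ratio of receptor to T cell transcripts depends on the markers chosen.

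Lag3 and Havcr2, which are also transcribed outside T cells, made up most of the receptor counts. The ratio was therefore repeated, after its values had been seen, for Pdcd1, Ctla4, Tigit and Icos alone. It was then 0.714, 0.476, 0.967 and 0.560 in the 4 groups, and the obese anti–PD-1 tumors, at 0.287 to 0.778, fell within the range of the others. Pdcd1 alone had 0.367, 0.286, 0.533 and 0.312 counts for each CD3 count. These are ratios of few counts and were not tested.

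**Figure D4:**
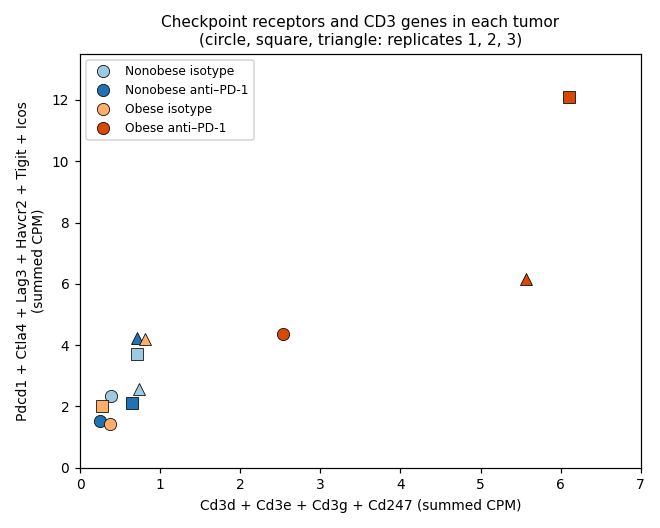
Summed CPM of the 6 checkpoint receptor genes against that of the 4 CD3 genes in each of the 12 tumors, coloured by group, with replicate numbers as symbols. The 3 obese anti–PD-1 tumors lie to the right of the other 9, with 36, 124 and 122 CD3 counts, and replicate 2 is highest on both axes.

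Across the 12 tumors, Lag3 followed the sum of the 12 T cell markers most closely of the tested members, with a Pearson r of 0.90 on log2 CPM. In obese isotype tumors, the 4 CD3 genes made up 0.490 of the mean 7.07 CPM of that sum, so it largely reflects its other markers. The r with that sum was 0.71 for Cd274, 0.70 for Havcr2, 0.66 for Lgals9, 0.66 for Pdcd1 and -0.09 for Cd276. With the summed macrophage and monocyte markers, r was 0.75 for Lgals9 and 0.75 for Lag3, 0.52 for Cd274, 0.47 for Havcr2, 0.42 for Pdcd1 and 0.05 for Cd276, so that Lgals9 followed that sum at least as closely as the T cell sum. Among members, Lag3 and Havcr2 were most alike (r = 0.82), and Cd274 and Cd276 ran opposite (r = -0.63). The genes whose pattern was most like a member's were Batf2 for Lag3 (r = 0.96), Cd37 for Lgals9 (0.92), Casp12 for Pdcd1 (0.91), Gm4841 for Havcr2 (0.90), Gimap3 for Cd274 (0.90) and Mir703 for Cd276 (0.89). Next came Gpr65 and Erap1 for Lag3, Trim12c and Bcl2a1b for Pdcd1, Trim12c and Adap2 for Havcr2, and H2-Q4 and Olfr56 for Cd274. For Cd276 they were Zbtb42 and Larp1b, and for Lgals9 Sh3bgrl3 and Rtfdc1. These values describe 12 tumors that share groups and libraries, and the named genes were picked as the highest among 13095.

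A wider list of 44 checkpoint and costimulatory genes was read in the same fits, of which 43 were in the table under the listed or an older symbol and 27 were tested. Pvrig was not analysed here. In nonobese mice, Cd40 and Vsir (listed as 4632428N05Rik) were called lower with anti–PD-1, at -1.61 and -1.32, against 2.31% of all genes called lower, and no gene of the list was called higher. Cd40 is a stimulatory receptor of antigen-presenting cells, and Vsir encodes the inhibitory B7 family protein VISTA. Entpd1, which encodes an ectonucleotidase, was -0.82. In obese mice, 2 were called higher with anti–PD-1, Cd86 at 1.83 and Cd244 at 1.97, and none lower. Cd244, like Pdcd1, reached the filter level in all 3 obese anti–PD-1 tumors and in 1 other tumor, so that only Cd86, 1 of the 23 genes that reached it in at least 3 tumors outside that group, is set against the 2.24% of all genes called higher. CD86 is the ligand that CD28 and CTLA-4 share, and CD244 is a receptor of natural killer and T cells. Cd86 stood at 0.547, 0.210 and 0.716 CPM in obese isotype and at 1.34, 2.46 and 1.60 CPM in obese anti–PD-1 tumors, without overlap. All FDR values in the wider list were 0.135 or above.

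Between the isotype groups, Vsig4 (-2.53) and Btn2a2 (-2.17), which encode inhibitory proteins of the immunoglobulin superfamily, were called lower in obese mice. Vsig4 reached the filter level only in nonobese isotype and obese anti–PD-1 tumors, and without it Btn2a2 was 1 of 26 genes, against 1.12% of all genes called lower. Between the anti–PD-1 groups, Cd86, Cd40, Cd244 and Vsir were called higher in obese mice, at 1.84, 1.71, 2.28 and 1.17. Without Cd244 these were 3 of 23 genes, against 3.69% of all genes. In the difference of the responses, 7 of 27 were called and all were larger in obese mice: Cd86 (3.005), Cd40 (2.26), Tnfrsf4 (2.22), Cd244 (2.89), Vsir (2.06), Vsig4 (4.68) and Entpd1 (1.45). Cd244, Tnfrsf4 and Vsig4 reached the filter level in fewer than 3 tumors outside nonobese isotype and obese anti–PD-1, the groups whose high values make this difference positive. Of the 22 genes that reached it in 3 or more, 4 were called, against 4.93% of all genes called in that direction. The median log2 difference of the 27 genes was 0.37, but it includes Cd244, Tnfrsf4 and Vsig4 and is not set against that of all genes. A negative value in nonobese and a positive value in obese mice, by sign alone, was seen in 16 of the 27 genes. It was also seen in Pdcd1, Lag3 and Lgals9 among the members. The 16 genes include Cd244, Tnfrsf4 and Vsig4, and Pdcd1 passed the filter through the group in which it was high. This tally is therefore not set against the share of all genes.

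**Figure D5:**
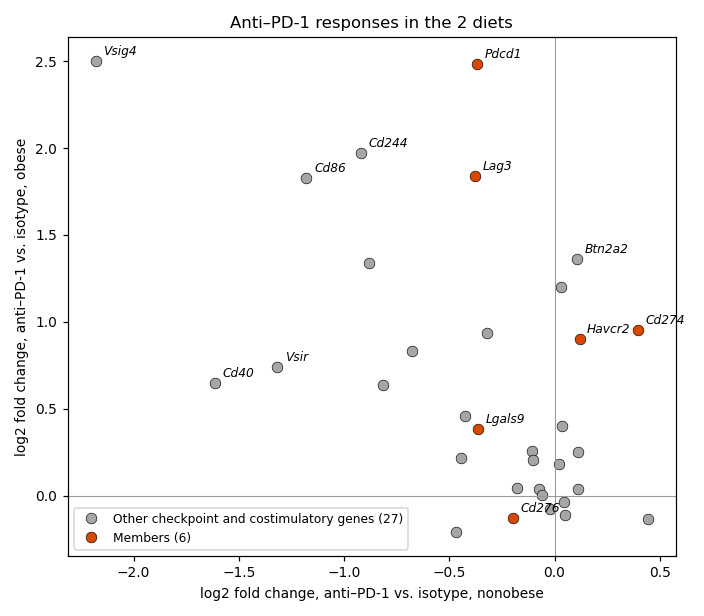
Log2 fold change with anti–PD-1 in nonobese mice (horizontal) against that in obese mice (vertical) for the 6 tested members and the 27 tested genes of the wider list. Pdcd1, Lag3 and Lgals9 lie in the upper left, with a negative nonobese and a positive obese value, Lag3 at -0.38 and 1.84.

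Genes of the interferon gamma axis, which induces PD-L1, were read beside Cd274. Ifng itself had 1, 12 and 6 counts in obese anti–PD-1 tumors, 0, 0 and 1 in obese isotype, 1, 0 and 2 in nonobese isotype and 0, 1 and 4 in nonobese anti–PD-1 tumors. Of the 10 tested genes of the axis, 0 were called in nonobese mice, against 2.42% of all genes, and 4 were called higher in obese mice, against 2.24% of all genes. Irf1, a transcription factor induced by interferon, was 1.00 (SE 0.40, FDR 0.561) and its obese groups overlapped. Irf1 stood at 22.6, 93.3 and 59.4 CPM in obese anti–PD-1 tumors, where Cd274 was 14.1, 21.6 and 15.8 CPM. In obese isotype tumors, Irf1 stood at 30.1, 26.9 and 30.8 CPM and Cd274 at 9.63, 8.60 and 8.36 CPM. The order of the tumors was thus the same for both genes in the first group but not in the second. Replicate 1 of obese anti–PD-1 was below every obese isotype tumor for Irf1 and above each of them for Cd274. A link between these genes was not tested. In the difference of the responses, Irf1 was 1.18 (SE 0.56), beside 0.56 (SE 0.50) for Cd274.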

How the data were processed

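RNA of 12 tumors was analysed. Per the labels, libraries were stranded and made from mRNA, and the submitters' processing notes name FastQC 0.11.5, STAR 2.7.0f, HTSeq 0.9.1, edgeR 3.28.1 and mm10. The authors deposited raw counts, whole numbers per gene without normalization; the strand setting and annotation of the counting are not given in the sources used here. Reads carried no molecular identifiers, so floors of 3 counts cover counting error only. The sources do not number the mice, so P values measure the spread between these tumors.

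Here, edgeR 4.0.16 (R 4.3.3) kept 13095 genes with filterByExpr, of 17519 with a count, scaled them by TMM and fitted 4 group means with the earlier form of glmQLFit. The common dispersion was 0.0352. A call needs a change of more than 2-fold with an unadjusted P below 0.05, the rule of the study's methods, with Benjamini-Hochberg FDR over all genes tested. SE values derive from the F statistic. With 3 tumors against 3, an exact permutation test cannot give a two-sided P below 0.1. The code was tested on simulated data. Exon lengths and positions are from GENCODE M21 and upstream sequences from RefSeq GRCm38.p6.

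Members and lists were chosen with earlier results of these data known. Named were all members, the called genes of the wider list (or its 3 with the smallest P), Ifng and Irf1 (a further gene of the rule is not reported here), and the 3 genes most like each tested member. Lists of regulatory T, NK, B, dendritic, endothelial, fibroblast and muscle markers were also read. Between the anti–PD-1 groups, the deviations of tumors of the same number had r of 0.111 to 0.443 for the 3 pairs. The labels give no pairing, and these values did not pair replicates 2 and 3. Replicate 2 of 1 group had r of 0.119 and 0.117 with replicate 3 of the other, against 0.111 with its replicate 2. The values printed for that comparison come from the fit without a block, and the block was an alternative. Alternatives were DESeq2 1.42.0, 2 other filters, RLE scaling, models of 6 tumors, a replicate block, the current glmQLFit form and leaving out each tumor.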

Additional observations from a re-analysis of the deposited data

Results flagged for a closer look

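Among the tested checkpoint genes, 2 had responses to anti–PD-1 that differed between the diets by a test of the difference itself at an unadjusted P below 0.05. For Lag3 the response was larger in obese mice by 2.21 on the log2 scale (FDR 0.274, edgeR), and 2 of the 3 obese anti–PD-1 tumors were above every obese isotype tumor. For Lgals9 it was larger by 0.75 (FDR 0.137, edgeR), with 3 of 3 anti–PD-1 tumors below the isotype tumors in nonobese mice and 3 of 3 above them in obese mice. Neither passed an FDR of 0.05 in edgeR with all 12 tumors. For Lgals9, DESeq2 gave an FDR of 0.0141, and with each tumor left out in turn the FDR in edgeR ran from 0.0477 (without replicate 1 of obese anti–PD-1) to 0.415 (without replicate 2 of nonobese isotype), below 0.05 only in the first. Over all genes tested, 12.9% had an unadjusted P below 0.05 in this difference.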

How the results depend on the processing

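RLE scaling, the current form of glmQLFit and the 6-tumor models changed no call of a member. With no filter beyond 1 count, 1 member was called in nonobese mice (Icos, higher) and 5 in obese mice. There were 3 between isotype groups (Icos higher, Ctla4 and Pdcd1lg2 lower in obese mice). There were 3 between the anti–PD-1 groups (Lag3, Pdcd1 and Tigit) and 4 in the difference. The shares of all 17519 genes called were 2.60%, 2.90%, 1.86%, 4.52% and 5.83%. Icos had 0 counts in nonobese isotype tumors, and Ctla4 and Pdcd1lg2 had 0 in obese isotype tumors. Their fitted folds against these groups depend on the prior count, so these calls are not read against the shares. Cd276 turned to -0.00386 between the anti–PD-1 groups. With at least 10 counts in every tumor, 4 members were tested and 0 were called in any comparison, since Pdcd1 and Lag3 were removed. By DESeq2, 1 member, Lgals9, had an FDR below 0.05 between the anti–PD-1 groups (0.0463) and 1, again Lgals9, in the difference (0.0141). Over all genes these were 270 and 283, against 50 and 0 in edgeR.

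Leaving out each tumor gave 0 to 4 called members in obese mice, 1 to 4 between the anti–PD-1 groups and 0 to 3 in the difference, with Pdcd1 included. The shares of all genes called were 1.63% to 4.19%, 2.89% to 5.47% and 4.54% to 7.05%. In the last 2 comparisons, 0 to 1 members had an FDR below 0.05, against 2 to 231 and 0 to 226 of all genes. Uncalled values that turned sign ranged, in nonobese mice, from -1.82 to 0.21 for Pdcd1, -0.26 to 0.70 for Cd274 and -0.48 to 0.33 for Havcr2. They ranged, between isotype groups, from -0.91 to 0.96 for Pdcd1 and -0.60 to 0.22 for Havcr2. For Cd276 they ranged from -0.15 to 0.16 between anti–PD-1 groups and from -0.076 to 0.22 in the difference. The cause was not tested.

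The deviations of tumors of the same replicate number had a mean correlation of 0.133 over 18 pairs (-0.264 to 0.563). The mean was -0.0623 over 36 pairs of different number (-0.555 to 0.447). A correlation over 0.1 was seen in 10 of the 18 pairs and in 13 of the 36. Every same-number correlation exceeded 0.1 between the anti–PD-1 groups (0.111 to 0.443) and between nonobese isotype and obese anti–PD-1 (0.184 to 0.563), but not in the other 4 pairs of groups, and the sources do not say what a number marks. With a replicate block, 0, 2, 0, 2 and 1 members were called in the 5 comparisons, as without it. The shares of all genes called were 2.75%, 2.66%, 1.57%, 4.38% and 5.87%. Each count of 2 includes Pdcd1, whose high values decided that it was tested. With the block, Havcr2 turned to -0.016 in nonobese mice. At depths of 14022929 to 33871843 counts, Ctla4, Icos and Pdcd1lg2 had at most 7 counts in any tumor. Differences between single tumors were not detectable for Ctla4 and Icos. Pdcd1lg2 exceeded the floor of 3 counts only in replicate 2 of nonobese isotype and in replicates 2 and 3 of obese anti–PD-1.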

Other observations

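The 14 genes of the wider list that had counts but were too low to test included further receptors and ligands of the T cell synapse. Over 12 tumors, Cd28 had 54 counts, Btla 57, Cd27 44, Cd96 36, Cd226 18 and Cd160 10. Fgl1, which encodes a ligand of LAG-3, had 69 counts, with 2 to 11 in each tumor. Ido1 had 1 count in the series, and Cd70 and Vtcn1 had 0. These genes were named after their values were seen.

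Of 5 regulatory T cell markers, 4 were tested and only Foxp3, the defining transcription factor of these cells, passed the thresholds. It had 1, 0 and 3 counts in obese isotype and 3, 15 and 18 counts in obese anti–PD-1 tumors. In CPM these groups did not overlap, and Foxp3 was higher by a log2 fold change of 3.08 (SE 0.86, FDR 0.298, edgeR) in the obese response and by 3.18 (SE 1.15, FDR 0.271, edgeR) in the difference of the responses. With each tumor left out in turn, these values ran from 2.68 to 4.29 and from 2.73 to 4.39. Both were highest without replicate 3 of obese isotype. Foxp3 reached the filter level in 2 obese anti–PD-1 tumors and 1 nonobese anti–PD-1 tumor only, so that its high values decided that it was tested, and these calls are not set against the share of all genes. It was singled out after its values were seen. Ikzf2 differed by -0.16 (SE 0.27) in the obese response. The sum of the 5 markers, of which Tnfrsf18 is also in the wider list, was 3.52 to 4.59 CPM in nonobese isotype, 4.45 to 4.90 in nonobese anti–PD-1, 3.91 to 5.78 in obese isotype and 4.23 to 7.23 CPM in obese anti–PD-1 tumors.

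Other marker sums are given as ranges over 3 tumors, first for the isotype and anti–PD-1 groups of nonobese mice and then for those of obese mice. Fibroblast markers summed to 442 to 1893, 191 to 362, 108 to 687 and 287 to 1284 CPM, without overlap in nonobese mice, where 4 of 5 were called lower with anti–PD-1, against 2.31% of all genes. In the difference of the responses, 4 of 5 fibroblast markers were called larger in obese mice, against 4.93% of all genes. Dendritic cell markers summed to 8.22 to 13.2, 7.17 to 9.10, 6.99 to 9.07 and 7.83 to 17.7 CPM, and 1 of 4 tested (Itgax) was called higher in the obese response, against 2.24% of all genes. Itgax was also called lower in the nonobese response (-1.19) and larger in obese mice in the difference (2.50), against 2.31% and 4.93% of all genes. Between the anti–PD-1 groups, 2 of the 4, Itgax (1.84) and Cd209a (1.66), were called higher, against 3.69% of all genes. The other tested markers, Ccr7 (1.41) and Zbtb46 (-0.26), were not called there. Zbtb46 was 0.19 in the nonobese response and -0.04 in the difference, so the tested markers did not move together. Natural killer cell markers summed to 0.418 to 1.499, 0.535 to 0.680, 0.382 to 0.715 and 0.494 to 3.25 CPM, and Gzma was at 0 counts in obese isotype and Ncr1 in nonobese anti–PD-1. B cell markers summed to 1.65 to 2.89, 1.16 to 2.59, 1.67 to 2.36 and 1.41 to 6.16 CPM, with Cr2 at 0 counts in obese isotype. The B cell marker Cd79b was called higher in the obese response (1.98) and between the anti–PD-1 groups (1.88). It was also called larger in obese mice in the difference (2.92), and Cd79a was called in none of these. The shares of all genes in these directions were 2.24%, 3.69% and 4.93%. Endothelial markers summed to 133 to 167, 94.5 to 132, 79.0 to 143 and 98.9 to 167 CPM, with no call in any comparison. Skeletal muscle markers summed to 10.5 to 269, 6.25 to 264, 9.09 to 94.4 and 25.1 to 422 CPM. The part of these cell types in the levels of the checkpoint genes was not tested.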
